A study of Homo sapiens with 6 samples.

Results

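Chromosomes 13 and 18 are the gene-poor pair among the chromosomes covered by these ATAC-seq peak lists. ATAC-seq uses a transposase that cuts open DNA, and each listed interval is a stretch where cuts pile up above the local background. Every interval on either chromosome was taken, with no choice by size or strength. The 6 lists held 48967 intervals, and 1520 of them (3.10%) lay on chromosome 13 or 18. Overlapping intervals of the 6 libraries merged into 17466 regions, 338 of them on chromosome 13 and 236 on chromosome 18, which makes 574 regions for the pair.

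The label of the pair was checked against a RefSeq gene table. Chromosome 13 held 338 protein-coding genes, or 2.94 per Mb, and chromosome 18 held 270, or 3.47 per Mb. These were the lowest and the next lowest gene densities of 23 chromosomes (1 to 22 and X), with length taken up to the last interval. From the first to the last interval, which leaves out the short arm of chromosome 13, they were 3.53 per Mb on chromosome 13 and 3.47 on chromosome 18, and still the 2 lowest. The 6 most gene-dense chromosomes by the same table (19, 17, 11, 16, 22 and 20) held 12.0 genes per Mb together.

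The study used 3 modified lines of K562, an established human leukaemia line. One overexpressed wild-type SLFN11, another SLFN11 with the E669Q substitution, and the vector control line carried neither. Each line received camptothecin (CPT, 1000 nM for 4 h) or DMSO, so the groups were wild-type SLFN11 with CPT, wild-type SLFN11 with DMSO, E669Q SLFN11 with CPT, E669Q SLFN11 with DMSO, vector with CPT and vector with DMSO. All groups were 1 library each, and the sources used here do not say whether a line is 1 clone or a pool.

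Gene-poor chromosomes carry few promoters for their length, and promoters and the enhancers near them make up much of the accessible DNA of a cell. In human nuclei chromosome 18 tends to lie at the periphery and to replicate late, and chromosome 13 is acrocentric, with a short arm made of repeats that hg19 does not resolve. Camptothecin locks topoisomerase I onto DNA, which blocks moving replication forks. SLFN11 binds stressed forks and blocks replication, and E669Q lies in its ATPase domain.

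With 1 library per group no difference between groups has a replicate check. The 6 libraries come from 1 parental cell line, so tests over them measure only their own spread. Recovered depth, relative to vector with DMSO (set to 1), was 1.09 in wild-type SLFN11 with CPT and 1.72 with DMSO, 2.22 in E669Q with CPT and 1.33 with DMSO, and 1.09 in vector with CPT. The lists held 5246 to 12337 intervals, and the 2 longest came from the 2 deepest libraries. The 95% intervals below allow for counting error only and take each interval as independent. Gene names and DNA sequences were not used here, because they need an hg19 annotation and genome. The SLFN11 gene itself and the K562 identity were not checked for the same reason.

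Accessible intervals were sparse on chromosomes 13 and 18 in every library. Together they held 0.752 intervals per Mb in wild-type SLFN11 with CPT, against 1.87 per Mb on all other chromosomes. In wild-type SLFN11 with DMSO the densities were 1.92 and 3.89 per Mb. In the E669Q line they were 1.95 and 4.12 per Mb with CPT, then 1.37 and 2.79 per Mb with DMSO. The gap was of the same order in the vector line. Its densities were 0.948 and 1.94 per Mb with CPT, and 0.938 and 1.75 per Mb with DMSO. The density of the pair was thus below that of the other chromosomes in 6 of 6 libraries, by a mean log2 ratio of −1.06 ± 0.14 (SD, n = 6 libraries), or 0.479 times on the linear scale. An exact two-sided sign-flip permutation test over the libraries gave p = 0.031, the smallest it can give. Adjusted over the 4 measures tested this way (Benjamini-Hochberg) it was 0.125, which misses 0.05. All other chromosomes here means every other sequence in the lists, including any outside chromosomes 1 to 22 and X. Against chromosomes 1 to 22 and X only, a setting that was not planned, the mean log2 ratio was −1.09.

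Which of the pair was the sparser depended on how length was counted. Up to its last interval, chromosome 13 held 0.652 intervals per Mb in wild-type SLFN11 with CPT and 1.77 with DMSO, 1.89 in E669Q with CPT and 1.33 with DMSO, and 0.852 in vector with CPT and 0.904 with DMSO. Chromosome 18 held 0.899 and 2.13 per Mb in the same wild-type SLFN11 libraries, 2.04 and 1.43 in those of E669Q, and 1.09 and 0.989 in those of the vector line. On this length chromosome 13 was below chromosome 18 in 6 of 6 libraries and the lowest of 23 chromosomes in all 4 libraries of the SLFN11 lines. In both vector libraries chromosome 15 was lower still (0.663 per Mb with CPT and 0.722 with DMSO).

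That length counts the short arm of chromosome 13, which holds no interval. From the first to the last interval, chromosome 13 held 0.784 per Mb in wild-type SLFN11 with CPT and 2.132 with DMSO, 2.28 in E669Q with CPT and 1.60 with DMSO, and 1.02 in vector with CPT and 1.09 with DMSO. The values of chromosome 18 do not change at this precision. Chromosome 13 was then above chromosome 18 in both E669Q libraries and in vector with DMSO, below it in wild-type SLFN11 and vector with CPT, and level with it in wild-type SLFN11 with DMSO. The lowest of 23 chromosomes was chromosome 13 in both wild-type SLFN11 libraries, chromosome 18 in both E669Q libraries and chromosome 15 in both vector libraries. The lower density of the pair held on this length too, with a mean log2 ratio of −0.94.

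**Figure D1:**
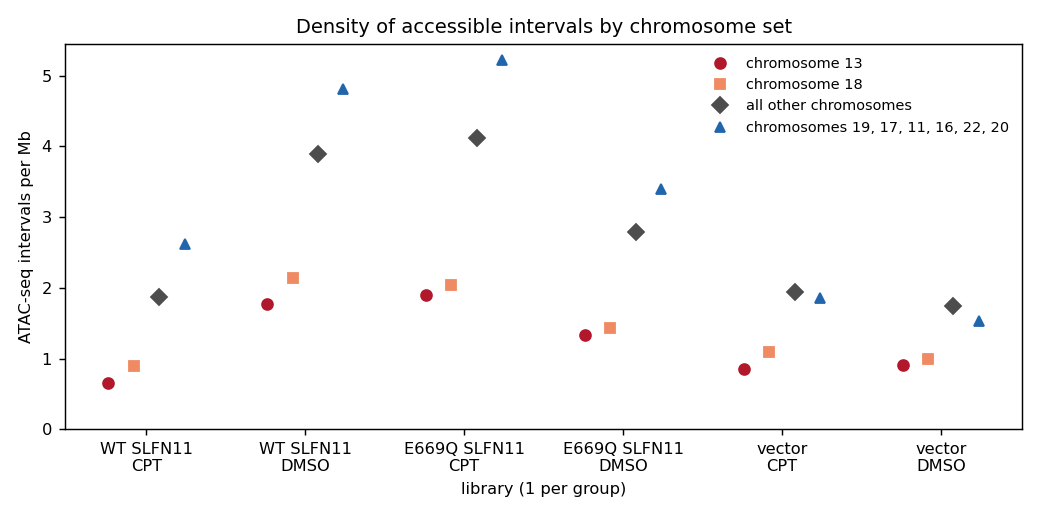
Intervals per Mb (vertical axis) on chromosome 13, chromosome 18, all other chromosomes and the 6 gene-dense chromosomes, for each of the 6 libraries (horizontal axis, 1 point per set and library, no error bars). Chromosomes 13 and 18 lie under all other chromosomes in each library, while the gene-dense set lies above all other chromosomes in the SLFN11 lines and below them in the vector line.

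The contrast with the gene-dense chromosomes was uneven between lines. Their density was 2.62 per Mb in wild-type SLFN11 with CPT and 4.81 with DMSO, and 5.22 in E669Q with CPT and 3.40 with DMSO, each above that of all other chromosomes. In the vector line it was 1.86 per Mb with CPT and 1.53 with DMSO, both below. The pair reached 0.614 times the gene-dense density in vector with DMSO but 0.287 times in wild-type SLFN11 with CPT. The gene-dense set, which is also part of all other chromosomes, was uneven within. In the 4 libraries of the SLFN11 lines chromosome 19 held 5.65 to 11.8 intervals per Mb. Chromosomes 20 and 22 lay below all other chromosomes in each of these 4.

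Set against gene number, the pair was not sparse. Chromosomes 13 and 18 held 23.8 intervals per 100 protein-coding genes in wild-type SLFN11 with CPT, against 27.9 on the other chromosomes of the 23. In the other 5 libraries the pair was the higher. Wild-type SLFN11 with DMSO had 60.9 against 58.1. The E669Q line had 62.0 against 61.6 with CPT and 43.4 against 41.7 with DMSO. The vector line had 30.1 against 29.0 with CPT and 29.8 against 26.1 with DMSO. The gene-dense chromosomes had 12.7 to 43.4 intervals per 100 genes and were below the pair in all 6 libraries.

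The regions were spread unevenly along both chromosomes. On chromosome 13 the first listed interval began at 19398927, and no interval lay on the short arm. The stretch from 90 Mb to the end held 139 of its 338 regions (41.1%). On chromosome 18 the first 10 Mb held 70 of 236 regions (29.7%), or 7 per Mb, against 1.74 per Mb from 60 Mb to the end. The median gap between neighbouring regions was 0.0878 Mb on chromosome 13 and 0.0877 Mb on chromosome 18. The longest stretches with no interval in any library ran from 53227095 to 57309620 on chromosome 13 (4.08 Mb) and from 34834125 to 39534943 on chromosome 18 (4.70 Mb). A further gap of 4.38 Mb on chromosome 18, from 14132665 to 18511062, spans the centromere. The densest 1 Mb windows held 19 regions between 111108417 and 111806039 on chromosome 13, and 18 regions between 2854110 and 3771776 on chromosome 18. These coordinates, like all below, are 1-based on hg19.

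The local background around the intervals was lower on the pair than elsewhere. The authors' fold enrichment and −log10 p together give the signal expected in the 10 kb around a summit. Its median on the pair was below that on the other chromosomes of the same library in 6 of 6 libraries, by −0.28 to −0.14 on the log2 scale. It was −0.48 to −0.19 on chromosome 13 and −0.20 to −0.05 on chromosome 18. In segments set after values were seen, the background lay below 0 in all 6 libraries in 3 of 7. It was −0.78 to −0.46 on chromosome 13 from 20 to 50 Mb and −0.58 to −0.37 on chromosome 18 from 40 to 60 Mb, and nearer 0, at −0.44 to −0.072, on chromosome 13 from 50 to 90 Mb. On chromosome 13 beyond 90 Mb it was −0.22 to 0.18, and in the first 10 Mb of chromosome 18 −0.17 to 0.13, so these segments lay on both sides of 0. The segments with the lowest background did not hold the fewest regions. Chromosome 13 held 3.43 regions per Mb from 20 to 50 Mb and 2.35 from 50 to 90 Mb. Chromosome 18 held 2.73 from 10 to 40 Mb, 2.65 from 40 to 60 Mb and 1.74 from 60 Mb to the end. The part of the background in the lower density was not tested. K562 is aneuploid, and copy number was not measured here.

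**Figure D2:**
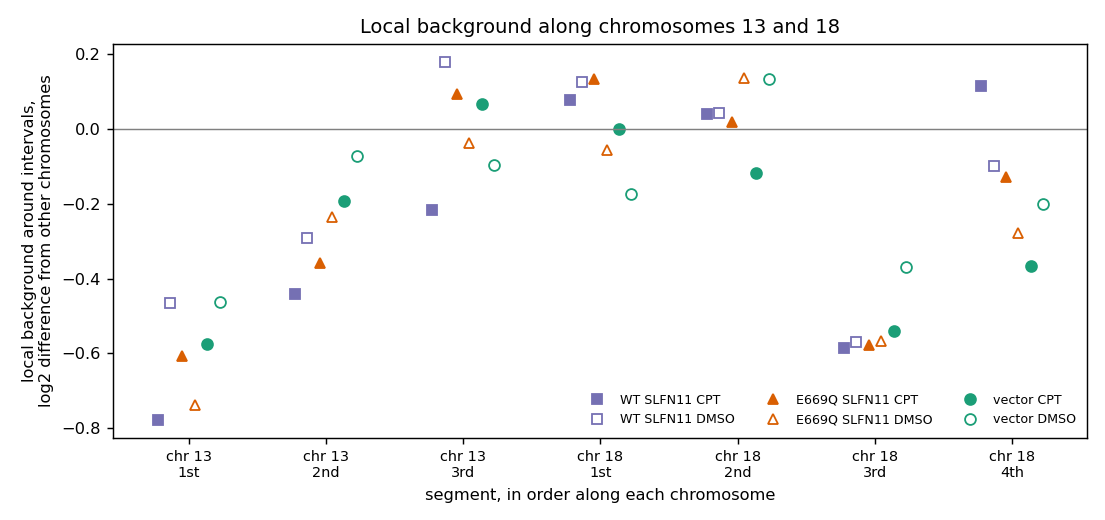
Median local background around intervals, as a log2 difference from the other chromosomes of the same library (vertical axis), in 3 segments of chromosome 13 and 4 of chromosome 18 in order along each (horizontal axis). Each point is 1 library, filled for CPT and open for DMSO; the first and second segments of chromosome 13 and the third of chromosome 18 lie below 0 in all 6 libraries, and the other 4 segments cross 0.

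Interval widths of the pair as a whole did not differ from those elsewhere beyond the spread between libraries, but its chromosomes went opposite ways. The median width on chromosomes 13 and 18, then on all other chromosomes, was 222 and 239 bp in wild-type SLFN11 with CPT and 285 and 283 bp with DMSO. It was 272 and 270 bp in E669Q with CPT, and 267 bp for both with DMSO. In the vector line it was 231 and 234 bp with CPT and 222 and 245 bp with DMSO. The pair was narrower in 3 libraries, wider in 2 and equal in 1. The mean difference was −6.5 ± 10.8 bp (SD, n = 6 libraries; exact two-sided sign-flip permutation p = 0.3125, adjusted 0.3125). Chromosome 13 alone was narrower than the other chromosomes in 6 of 6 libraries, by a mean of −15.7 ± 7.72 bp (exact permutation p = 0.031, adjusted 0.0625), and chromosome 18 alone was wider in 5 of 6, by 18.9 ± 17.6 bp (exact permutation p = 0.0938, adjusted 0.125). The adjusted values for single chromosomes do not allow for the number of settings tried.

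Within the pair the chromosomes differed in width. The median on chromosome 18 was above that on chromosome 13 in 6 of 6 libraries, by 42.5 bp in wild-type SLFN11 with CPT and 30 bp with DMSO, by 67 bp in E669Q with CPT and 36 bp with DMSO, and by 6.5 bp in vector with CPT and 25.5 bp with DMSO. In E669Q with CPT chromosome 18 had a median of 317 bp (95% interval 279 to 353) and chromosome 13 one of 250 bp (227 to 273). In the other 5 libraries the intervals of the chromosomes overlapped. Among intervals wider than 150 bp the difference was −18 bp in vector with CPT and 13 to 64 bp in the other libraries. This comparison was chosen after its values were seen and is given without a test. Intervals over 500 bp made up 19.5% of chromosome 18 in E669Q with CPT and 7.34% of chromosome 13.

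Narrow intervals, of 150 bp or less, had a higher share on the pair in 5 of 6 libraries. Their shares on chromosomes 13 and 18, then elsewhere, were 14.5% (21 of 145) and 12.3% in wild-type SLFN11 with CPT, and 15.1% (56 of 370) and 14.6% with DMSO. In E669Q they were 18.04% (68 of 377) and 18.2% with CPT, and 15.9% (42 of 264) and 13.4% with DMSO. In vector they were 19.1% (35 of 183) and 17.6% with CPT, and 17.7% (32 of 181) and 12.2% with DMSO. The mean difference was 2.00 ± 1.97 percentage points (SD, n = 6; exact two-sided sign-flip permutation p = 0.0625, adjusted 0.125), which did not pass 0.05. With narrow set at 200 bp or less the mean was 2.95 points and the pair was higher in 6 of 6 libraries (exact permutation p = 0.031, adjusted 0.0625). The smallest interval of a whole list was 102 to 128 bp.

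**Figure D3:**
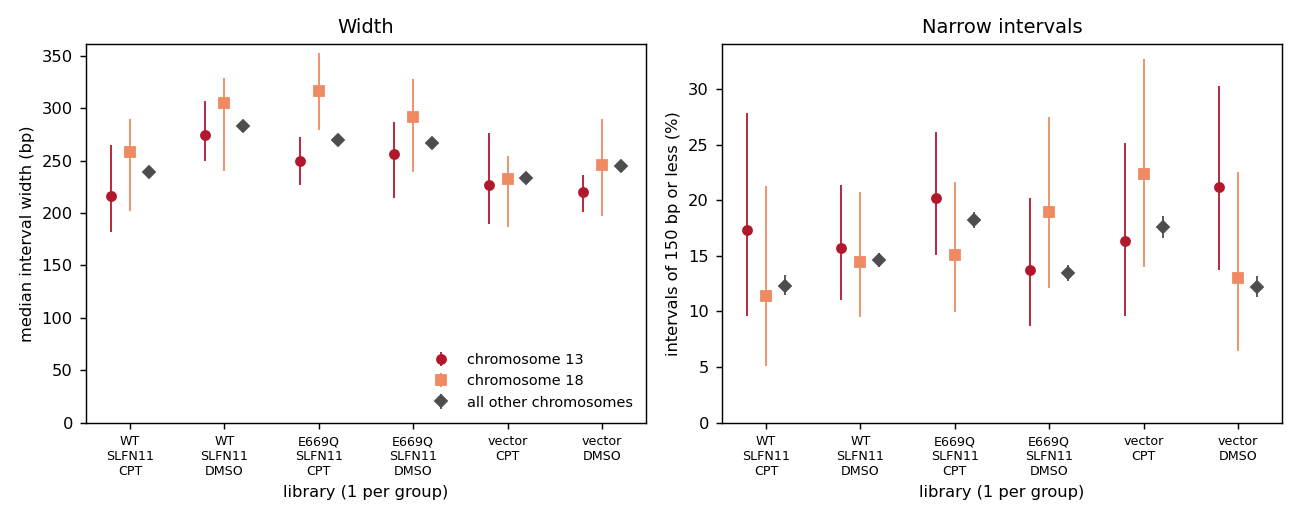
Median interval width in bp (left) and share of intervals of 150 bp or less in percent (right) on chromosome 13, chromosome 18 and all other chromosomes, by library; bars are 95% intervals for counting error, from order statistics for medians and Clopper-Pearson for shares. Chromosome 18 lies above chromosome 13 in width in each library, and the bars of the chromosomes overlap except in E669Q with CPT.

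The narrow intervals were weaker and less often shared than the wider ones, on the pair as on the other chromosomes. Over the 6 lists the pair held 254 narrow ones, 148 on chromosome 13 and 106 on chromosome 18. Their median fold was 4.97, against 6.14 for the 1266 wider intervals of the pair, and their median summit pileup 7 against 10. Folds and p-values of intervals are the authors' own, and these medians pool the 6 lists. Of the 254, 83 (32.7%, 95% interval 26.9 to 38.8) lay in regions seen in 1 library, against 12.3% (10.6 to 14.3) of the wider ones. On the other chromosomes the same shares were 31.5% and 10.3%, and the median folds 5.07 and 6.27. These shares also pool the 6 lists, so a region shared by libraries enters more than once. Their 95% intervals take such repeated calls as independent. A wider interval of another library overlapped 158 of the 254 (62.2%, 55.9 to 68.2), against 60.4% (4345 of 7191) on the other chromosomes.

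Regions made of narrow intervals alone numbered 89 on the pair, 83 of them in 1 library, 5 in 2 and 1 in 3. On the other chromosomes 2264 of 2522 such regions were in 1 library. The one in 3 libraries lay on chromosome 13 from 60970434 to 60970603 and was listed in E669Q with CPT, E669Q with DMSO and vector with DMSO, at folds of 4.87 to 6.52. The next by number of libraries were on chromosome 13 from 45992536 to 45992684 and from 100623128 to 100623369, and on chromosome 18 from 9017124 to 9017277 and from 56338361 to 56338550, each in 2 libraries at folds of 4.71 to 7.37. One narrow interval of the 254 exceeded a fold of 20. It was 109 bp long, lay on chromosome 18 from 45379644 to 45379752, had a fold of 43.4 and was listed in wild-type SLFN11 with DMSO and in no other library. Its width was the smallest in that list and its summit pileup was not recovered, and whether it marks open chromatin was not tested.

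The strength of intervals was compared by the authors' fold enrichment at the summit. The median fold on chromosomes 13 and 18, then on the other chromosomes, was 5.82 and 5.91 in wild-type SLFN11 with CPT, and 6.27 and 6.15 with DMSO. For E669Q it was 5.98 and 6.05 with CPT, then 5.90 and 6.08 with DMSO. For vector it was 5.84 and 6.14 with CPT, then 5.74 and 6.05 with DMSO. The pair was lower in 5 of 6 libraries, the exception being wild-type SLFN11 with DMSO. The mean difference was −0.14 ± 0.16 (SD, n = 6; exact two-sided sign-flip permutation p = 0.125, adjusted 0.167), within the spread between libraries. It was lower in 6 of 6 libraries among intervals wider than 150 bp (−0.19) and in lists of matched length (−0.18), each with an exact permutation p of 0.031, adjusted 0.0625.

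Most regions of the pair were seen in few libraries. Of 574 regions, 239 (41.6%, 95% interval 37.6 to 45.8) were in 1 library, against 37.9% elsewhere and 38.1% of all regions. All 6 libraries listed 62 (10.8%, 8.38 to 13.6), against 12.4% elsewhere and 12.3% of all regions. Both shares were near those of the whole series. Chromosome 13 had 30 regions in all 6 libraries (8.88%, 6.07 to 12.4) and chromosome 18 had 32 (13.6%, 9.46 to 18.6). The gene-dense chromosomes had 8.26% (7.37 to 9.23).

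**Figure D4:**
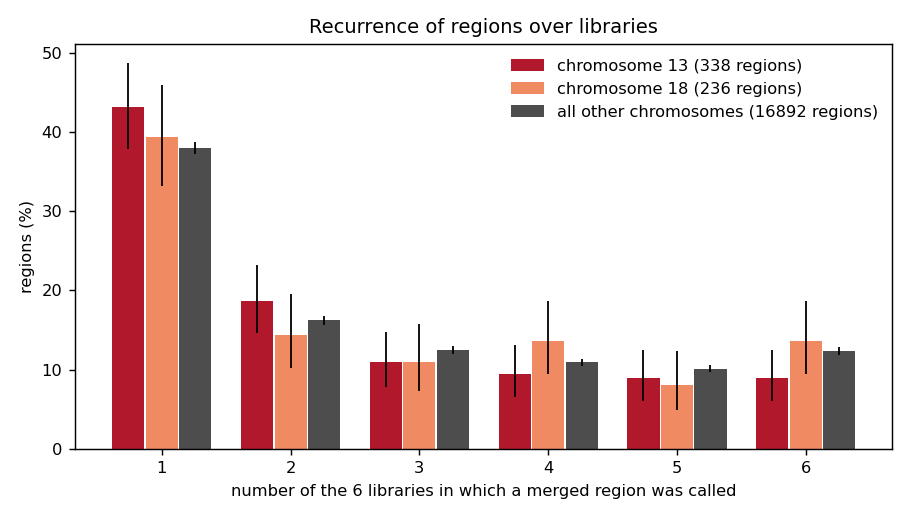
Share of merged regions in percent (vertical axis) by the number of the 6 libraries that listed them (horizontal axis), for chromosome 13, chromosome 18 and all other chromosomes; bars start at 0 and error bars are Clopper-Pearson 95% intervals. Regions in 1 library are the most frequent class in each set, at 43.2% on chromosome 13, 39.4% on chromosome 18 and 37.9% elsewhere.

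Regions were next grouped by which libraries shared them. Regions shared by all 4 SLFN11-line libraries but absent from both vector lists numbered 7 (1.22%, 0.492 to 2.50), against 3.16% (2.897 to 3.43) on the other chromosomes and 3.09% of all regions; 2 were on chromosome 13 and 5 on chromosome 18. Regions in both E669Q libraries and nowhere else numbered 32 (5.57%, 3.84 to 7.78), against 3.18% (2.93 to 3.46) elsewhere and 3.26% of all regions. Chromosome 13 held 24 of these 32, or 7.10% of its regions (4.60 to 10.4), and chromosome 18 held 8, or 3.39% (1.47 to 6.57). Both wild-type SLFN11 libraries and no other shared 4 regions (0.697%, 0.19 to 1.77; 0.819% of all), and both vector libraries and no other 1 (0.12% of all). The E669Q set was picked out after its values were seen, and neither difference was tested.

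The other patterns are given beside their share of all regions. Regions seen in wild-type SLFN11 with DMSO alone numbered 92 (16.03%, 13.1 to 19.3; 12.7% of all regions), and those in E669Q with CPT alone 80 (13.9%, 11.2 to 17.04; 14.8% of all). Those 2 libraries are the deepest. The other 4 libraries held fewer regions of their own: 28 in E669Q with DMSO (4.88%; 4.58% of all), 15 in vector with CPT (2.61%; 2.01% of all), 13 in wild-type SLFN11 with CPT (2.26%; 1.88% of all) and 11 in vector with DMSO (1.92%; 2.03% of all). Regions shared by the wild-type SLFN11 DMSO library and the E669Q CPT library, and in no other, numbered 23 (4.01%, 2.56 to 5.95; 5.42% of all). Regions missing from wild-type SLFN11 with CPT but present in the other 5 libraries numbered 22 (3.83%, 2.42 to 5.75; 3.02% of all). One region was listed in all 3 CPT libraries and in no DMSO library (0.149% of all regions had this pattern), and 3 in all 3 DMSO libraries and no CPT library (0.292% of all).

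The strongest regions common to all libraries were of different kinds. On chromosome 13 the highest fold stood from 110076474 to 110076688, at 37.9 in wild-type SLFN11 with CPT and 35.1 with DMSO, 36.96 in E669Q with CPT and 37.2 with DMSO, and 36.9 in vector with CPT and 37.3 with DMSO. It was 213 to 215 bp wide, its summits lay within 1 bp of each other, and its −log10 p ranked second in each of the 6 lists, at 3570 to 5035. The next highest median fold over the libraries, among the 30 shared regions of chromosome 13, was 11.6. Its summit pileup and local background were not recovered in any library. Such a region stands far apart from the others of the pair, and whether it marks open chromatin was not tested.

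That second region, on chromosome 13 from 92050597 to 92051078, had folds of 10.4 in wild-type SLFN11 with CPT and 12.1 with DMSO, 12.2 in E669Q with CPT and 10.5 with DMSO, and 11.002 in vector with CPT and 13.4 with DMSO. Its summit pileups were 23 to 47. It had 1 summit in each library. The third region of chromosome 13, from 73632835 to 73633344, had folds of 6.97 to 10.7 and pileups of 10 to 22.

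On chromosome 18 the leading region ran from 30050633 to 30051115. Its fold was 7.52 in wild-type SLFN11 with CPT and 12.01 with DMSO, 10.4 in E669Q with CPT and 9.20 with DMSO, and 10.8 in vector with CPT and 8.04 with DMSO. Its summit pileups were 11 to 28. The region from 18518412 to 18520334 stood at the edge of the centromeric gap. It was 1118 to 1923 bp wide with 5 to 10 summits, had folds of 8.97 to 10.3, and lay in a local background 5.92 to 6.37 log2 units above the lowest of its library in the 5 libraries where this was recovered. The third, from 34408754 to 34409403, had folds of 5.09 to 9.98, and its lowest fold and a pileup of 7 stood in vector with CPT.

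The number of intervals on the pair moved in opposite directions with camptothecin. In the wild-type SLFN11 line there were 145 with CPT (75 on chromosome 13 and 70 on chromosome 18), against 370 with DMSO (204 and 166), a ratio of 0.392. The E669Q line had 377 with CPT (218 and 159), against 264 with DMSO (153 and 111), a ratio of 1.43. The vector line had 183 with CPT (98 and 85), against 181 with DMSO (104 and 77), a ratio of 1.01. The ratios on all other chromosomes were 0.480, 1.48 and 1.11 in the same lines, and those on the gene-dense chromosomes 0.546, 1.54 and 1.22. The pair thus had the smallest ratio of these 3 sets in each line. The ratio of 0.368 for chromosome 13 in the wild-type SLFN11 line was the lowest of 23 chromosomes. Chromosomes 15 and X (0.384 each) and the gene-dense chromosome 20 (0.396) were close to it. The depth of the CPT library relative to its DMSO library moved the same way (0.634 in wild-type SLFN11, 1.66 in E669Q and 1.09 in vector), and its part in these numbers was not tested.

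As a share of its list, the pair was lower with CPT in 3 of 3 lines. It made up 2.61% with CPT and 3.18% with DMSO in the wild-type SLFN11 line, a difference of −0.57 percentage points (95% interval −1.08 to −0.024). For E669Q the shares were 3.06% with CPT and 3.16% with DMSO, a difference of −0.10 (−0.59 to 0.38). The vector line had 3.15% with CPT and 3.45% with DMSO, a difference of −0.30 (−0.97 to 0.37). The mean over lines was −0.32 ± 0.24 points (SD, n = 3; exact two-sided sign-flip permutation p = 0.25, adjusted 0.375). With 3 lines this test cannot give a p under 0.25. In lists of matched length, each with the 5246 intervals of highest −log10 p, the wild-type SLFN11 difference was −0.59 with an interval that includes 0 (−1.24 to 0.055). At a −log10 q of at least 5 the E669Q difference was 0.039, so that the pair was lower in 2 of 3 lines.

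Many DMSO intervals of the pair were not listed after camptothecin in the wild-type SLFN11 line. An interval with no overlap in the other list of its line is called lost if it was in the DMSO list and gained if in the CPT list. In the wild-type SLFN11 line 254 of 370 DMSO intervals were lost (68.6%), against 59.5% of the whole list. Of the E669Q line, 55 of 264 were lost (20.8%, against 19% of the whole list), and in the vector line 74 of 181 (40.9%, against 39.5%). In the lists as deposited the E669Q and vector shares were near the background of their lists.

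Stated as intervals found again, 31.4% of the pair (116 of 370; 26.7 to 36.3) recurred after CPT in wild-type SLFN11 cells, against 40.8% on the other chromosomes. The difference was −9.41 percentage points (95% interval −14.0 to −4.43). For E669Q 79.2% and 81.1% recurred (−1.89, −7.25 to 2.66), and in the vector line 59.1% and 60.6% (−1.46, −8.86 to 5.58). The mean over lines was −4.25 ± 4.47 points, lower in 3 of 3 lines (SD, n = 3; exact two-sided sign-flip permutation p = 0.25, adjusted 0.375). With the other chromosomes weighted to the same summit pileups, a setting chosen after seeing the data, the differences were −5.40 in the wild-type SLFN11, 1.19 in the E669Q and 3.62 in the vector line. Other settings gave larger differences in one or both of the E669Q and vector lines. In lists of matched length the differences were −13.9 (−21.4 to −6.24) for wild-type SLFN11, −16.6 (−24.6 to −8.49) for E669Q and −3.70 (−11.1 to 3.54) for vector. At a −log10 q of at least 5 they were −7.73 (−12.8 to −1.74), −8.85 (−17.2 to −1.71) and −12.1 (−23.1 to −0.73) in the same lines. With an overlap of at least 50% of both intervals they were −7.13 (−10.9 to −2.77), −6.36 (−12.4 to −0.26) and −10.7 (−17.2 to −3.40). Against the gene-dense chromosomes they were −12.5 (−17.4 to −7.19), −1.73 (−7.34 to 3.15) and 4.82 (−3.29 to 12.6). The settings thus differed, and the lower share found again was not shown to be particular to the wild-type SLFN11 line.

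Chromosome 13 and chromosome 18 parted here. On chromosome 13, 29.9% of DMSO intervals recurred in the wild-type SLFN11 line, 75.2% in E669Q and 51.9% in vector, which ranked 2, 2 and 8 from the lowest of 23 chromosomes. On chromosome 18, 33.1%, 84.7% and 68.8% recurred, ranking 4, 21 and 21. Their 95% intervals overlapped in each line. Chromosome 13 was below the other chromosomes in all 3 lines, while chromosome 18 was below in the wild-type SLFN11 line and above in the others.

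**Figure D5:**
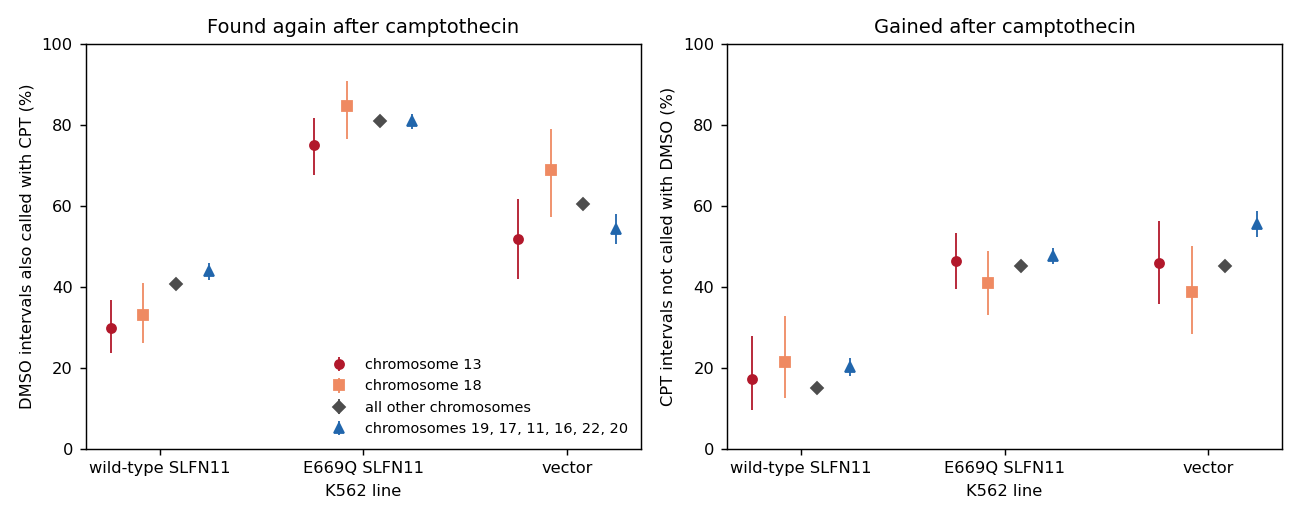
Share of DMSO intervals also listed with CPT (left) and share of CPT intervals not listed with DMSO (right), in percent, for 3 K562 lines and 4 sets of chromosomes; bars are Clopper-Pearson 95% intervals. In the wild-type SLFN11 line both chromosomes lie below the other chromosomes on the left, and on the right the bars of both chromosomes reach across the value of the other chromosomes in each line.

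The share of gained intervals on the pair differed in direction between the lines in the lists as deposited. In the wild-type SLFN11 line 28 of 145 CPT intervals were gained (19.3%, 13.2 to 26.7), against 15.1% of the whole list. Of the E669Q list, 166 of 377 were gained (44.0%, 38.95 to 49.2), against 45.2%, and in the vector line 78 of 183 (42.6%, 35.4 to 50.1), against 45.1%. The difference from the other chromosomes was 4.36 percentage points (−1.33 to 11.6) in the wild-type SLFN11 line, −1.17 (−6.18 to 3.96) in E669Q and −2.60 (−9.66 to 4.76) in vector, a mean of 0.196 ± 3.67 (SD, n = 3; exact two-sided sign-flip permutation p = 1, adjusted 1). It was positive in 3 of 3 lines among intervals wider than 150 bp (7.68 in wild-type SLFN11, 4.55 in E669Q and 0.19 in vector). The same held with an overlap of at least 50% of both intervals (6.10, 3.19 and 6.72 in the same lines) and for chromosome 13 alone (2.38, 1.13 and 0.693). Against the gene-dense chromosomes it was negative in 3 of 3 lines (−0.817, −3.49 and −12.9 in the same lines). The vector interval there was −20.6 to −4.97. With the other chromosomes weighted to the same summit pileups, a setting chosen after seeing the data, it was 1.49, −6.94 and −8.15. Its sign differed between lines at a −log10 q of at least 5, at matched length and for chromosome 18 alone. The direction thus depended on the setting.

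Lost and gained intervals were weaker and narrower than those present with both treatments. Among wild-type SLFN11 intervals of the pair, the lost had a median fold of 5.78 and a width of 228.5 bp in the DMSO list, against 7.07 and 433 bp for those found again. In the E669Q line the gained had 5.41 and 214 bp in the CPT list, against 6.34 and 343 bp for those shared. In the vector line the lost had 5.04 and 184 bp, against 6.03 and 281 bp. Narrow intervals made up 19.3% of the lost in wild-type SLFN11, 18.2% in E669Q and 28.4% in vector. Among DMSO intervals found again they made up 6.03%, 15.3% and 10.3% in the same lines. On the other chromosomes 21.4%, 25.5% and 18.6% of the lost were narrow, above the pair in both SLFN11 lines and below it in vector. The fold and width contrasts held there too. The lost in wild-type SLFN11 had 5.68 and 222 bp, against 7.10 and 395 bp for those found again.

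Signal within shared intervals was compared after scaling by depth. The median log2 change in summit pileup, CPT over DMSO, was −0.052 on the pair (115 intervals, 95% interval −0.22 to 0.074) and −0.020 elsewhere in the wild-type SLFN11 line. For E669Q it was −0.34 (206 intervals, −0.41 to −0.25) and −0.25 elsewhere, and in the vector line −0.037 (106 intervals, −0.12 to 0.12) and −0.038 elsewhere. On chromosome 13 alone it was −0.20 (60 intervals, −0.34 to 0.0065) in wild-type SLFN11, −0.44 (114 intervals, −0.56 to −0.37) in E669Q and 0.032 (53 intervals, −0.24 to 0.17) in vector. On chromosome 18 it was 0.074 (55 intervals, −0.13 to 0.31), −0.19 (92 intervals, −0.32 to −0.056) and −0.080 (53 intervals, −0.27 to 0.20) in the same lines. In both SLFN11 lines chromosome 13 was thus below the other chromosomes and chromosome 18 above, and in vector the reverse. Only intervals listed in both libraries enter these medians.

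The gained and lost intervals with the highest folds were modest in size. Over the 3 lines, the 12 gained intervals named by the rule for named regions had folds of 5.94 to 9.63, widths of 153 to 403 bp and summit pileups of 7 to 17. The 12 lost ones had folds of 6.70 to 11.6, widths of 152 to 672 bp and pileups of 8 to 22. Of each 12, 9 overlapped an interval in a library of another line and 3 did not.

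The wild-type SLFN11 line had its strongest lost intervals on chromosome 13, from 41240701 to 41241125 (fold 9.99, in no other library) and from 50018080 to 50018428 (fold 9.39, in all 4 libraries of the other lines). Those of chromosome 18 ran from 10043 to 10403 (fold 11.6, also in both E669Q libraries), near the start of the assembled sequence, and from 2854110 to 2854545 (fold 11.4, also in both vector libraries). Its strongest gained intervals on chromosome 13 ran from 27998644 to 27998796 (fold 6.85, in no other library) and from 45151651 to 45151853 (fold 5.94, also in both E669Q libraries). Those of chromosome 18 ran from 54318575 to 54318920 (fold 7.33, also in E669Q with CPT) and from 3261836 to 3262238 (fold 6.08, in all 4 libraries of the other lines). Of these 8 intervals, 6 were thus also listed in another line.

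The E669Q line had gained intervals on chromosome 13, from 33160455 to 33160630 (fold 9.63) and from 81969556 to 81969888 (9.44), and on chromosome 18 from 20247914 to 20248239 (9.10) and from 60331179 to 60331495 (8.07). The second and the third of these were in no other library. Lost ones on chromosome 13 ran from 32420694 to 32420848 (7.64) and from 79221321 to 79221472 (7.44), neither in another library, and those on chromosome 18 ran from 72265092 to 72265394 (7.02) and from 77711659 to 77711935 (6.70), each in 1 other library. The first gained interval was also in 3 libraries of the other lines and the fourth in 2.

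The vector line had gained intervals on chromosome 13, from 100741188 to 100741559 (fold 7.98) and from 110438912 to 110439145 (7.46), and on chromosome 18 from 77264846 to 77265248 (8.61) and from 32559028 to 32559403 (7.76). Its lost ones on chromosome 13 ran from 38533591 to 38533814 (9.01) and from 77492050 to 77492272 (8.61), and those on chromosome 18 from 51751026 to 51751219 (8.53) and from 71815086 to 71815757 (8.51). All 8 were listed in 2 or more of the 4 libraries of the SLFN11 lines, and 4 of them in all 4.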

How the data were processed

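ATAC-seq peak lists of 6 libraries were used, 1 per group, with groups taken from the labels. Per the submitters' processing notes the build was hg19 and the tools were MACS2 2.1.2, Picard 2.9.2, SAMtools 1.8, Bowtie2 2.2.6 and Trimmomatic 0.39, with no roles or settings. Read shifting, duplicate handling and read totals are not given in the sources used here.

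For each summit the authors deposited a fold enrichment (a ratio over local background), a −log10 p-value, a −log10 q-value and a score, and peaks were listed per library. Deposited −log10 q-values began at 2.00 to 2.01 in each list. Summits of 1 interval were joined and given their highest fold. Intervals overlapping by at least 1 bp were called shared. Chromosome length was the largest interval end in the lists. Fold and −log10 p were solved for summit pileup and 10 kb background, assuming MACS2's pseudocount of 1 (98.6% to 99.2% of entries solved within 0.001), and depth was read from the background steps. Scripts were checked on simulated data.

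Measures over 6 libraries or 3 lines were tested with exact two-sided sign-flip permutation tests, adjusted by Benjamini-Hochberg over 4 and 3 results. Under an alternative setting over the 6 libraries, the p of a result replaced its main p among the 4. Adjusted values of alternatives therefore do not allow for the number of settings tried and are not comparable with those of the main setting. Shares carry Clopper-Pearson, differences of shares Newcombe, and medians order-statistic 95% intervals. Named regions were, per chromosome, the 3 with the highest median fold among those in all libraries, the 3 all-narrow ones in most libraries, and per line the 2 gained and 2 lost intervals over 150 bp with the highest fold. Gene counts come from a RefSeq table of another build (GRCh38.p14), without coordinates. Genes near peaks were planned but not analysed here. The chromosomes, the 150 bp limit, the measures and the gene-dense set were chosen with earlier results of these data known. Alternatives were a −log10 q of at least 5, lists of matched length (5246 intervals), each chromosome alone, the gene-dense set as comparison, other width limits, overlap and length rules, and leaving out each library. Scripts ran under matplotlib 3.10.9, scipy 1.17.1, pandas 2.3.3 and numpy 2.4.6 on Python 3.11.15.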

Additional observations from a re-analysis of the deposited data

Results flagged for a closer look

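The measures here drew attention because their values did not have the same direction in all 3 lines. Some are changes with camptothecin, and others are differences between the pair and the other chromosomes. None of these differences between lines was tested, because each group is 1 library. The number of intervals on chromosomes 13 and 18 with CPT over that with DMSO was 0.392 for wild-type SLFN11, 1.43 for E669Q and 1.01 for vector. On the other chromosomes it was 0.480, 1.48 and 1.11 in the same lines. Their median width, CPT minus DMSO, was −63 bp in wild-type SLFN11, 5 bp in E669Q and 9 bp in vector, beside −44, 3 and −11 bp on the other chromosomes. Their share of narrow intervals, CPT minus DMSO, was −0.652 percentage points in wild-type SLFN11, 2.13 in E669Q and 1.45 in vector, and the 95% interval of each includes 0. On the other chromosomes it was −2.27, 4.80 and 5.37 in the same lines, with the same signs and 95% intervals that exclude 0.

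The share of gained intervals, chromosomes 13 and 18 minus the others, was 4.36 percentage points in wild-type SLFN11, −1.17 in E669Q and −2.60 in vector. The median log2 change in depth-scaled summit pileup, chromosomes 13 and 18 minus the others, was −0.032 in wild-type SLFN11, −0.095 in E669Q and 0.00034 in vector, the last of which is close to 0.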

How the results depend on the processing

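The lower density of chromosomes 13 and 18 kept its direction in 6 of 6 libraries under all 8 alternatives tried (mean log2 ratio −1.26 to −0.93). The mean width difference turned to 3.58 bp at a −log10 q of at least 5, to 18.9 bp for chromosome 18 alone (−15.7 for chromosome 13 alone) and to 7.83 bp against the gene-dense chromosomes, and the mean fold difference to 0.048 against the gene-dense chromosomes; the other fold alternatives stayed negative, down to −0.19 among intervals wider than 150 bp. The found-again difference was 1.42 points for chromosome 18 alone, −11.4 in lists of matched length, −9.55 at a −log10 q of at least 5, −8.05 with an overlap of at least 50% of both intervals and −0.20 with the other chromosomes weighted to the same summit pileups, a setting chosen after seeing the data. Against the gene-dense chromosomes it was −3.13. The gained difference was −1.42 for chromosome 18 alone, −5.74 against the gene-dense chromosomes and −4.54 at the same pileups, but 5.34 with an overlap of at least 50% of both intervals, 4.55 at matched length, 4.14 among intervals wider than 150 bp, 3.45 at a −log10 q of at least 5 and 1.40 for chromosome 13 alone. The share change with CPT stayed negative on average, at −0.39 to −0.069. Regions in all 6 libraries made up 3.45% at a −log10 q of at least 5 and 7.51% at matched length. The cause of these shifts was not tested. Leaving out each library in turn gave −1.09 to −1.01 for log2 density, −8.2 to −3.2 bp for width, 1.30 to 2.43 points for narrow intervals and −0.19 to −0.10 for fold. The narrow difference was 0.238 points at a −log10 q of at least 5. No paired analysis by replicate number was possible because each group is 1 library and the labels give no replicate numbers; the only pairing is that of CPT and DMSO within a line. Depth differs up to 2.22 times between libraries, and an interval missing from a shallow list is not shown to be closed. Counts on 1 chromosome were 70 to 218 per library, which limits each share.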

Other observations

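The regions found in all 6 libraries were unevenly placed. On chromosome 13 the stretch from 20 to 50 Mb held 4 of them among 103 regions (3.88%), against 13 of 94 (13.8%) from 50 to 90 Mb and 13 of 139 (9.35%) beyond 90 Mb. On chromosome 18 the first 10 Mb held 11 of 70 (15.7%) and the stretch from 10 to 40 Mb 14 of 82 (17.1%). The segment from 40 to 60 Mb held 4 of 53 (7.55%), and that beyond 60 Mb 3 of 31 (9.68%). The segments with the smallest share common to all libraries on each chromosome were thus those with the lowest local background. The segments were set after values were seen, and no test was made.

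The wild-type SLFN11 line listed fewer intervals with CPT than with DMSO in each of the 7 segments, with ratios of 0.292 to 0.490. The ratio was 0.314 on chromosome 13 beyond 90 Mb, with 27 intervals against 86, and 0.292 on chromosome 18 beyond 60 Mb, with 7 against 24. In the E669Q line the ratio was 1.25 to 1.76 over the same segments, and in the vector line 0.806 to 1.21. The whole lists had ratios of 0.477 in wild-type SLFN11, 1.47 in E669Q and 1.11 in vector. Depth, CPT over DMSO, was 0.634, 1.66 and 1.09 in the same lines, and its part in the segment ratios was not tested. The 24 regions of chromosome 13 listed in both E669Q libraries alone lay in each 10 Mb bin from 10 Mb onward, with 1 to 6 per bin, and the bin from 90 to 100 Mb held 6.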
